A study of Mus musculus with 62 samples.

Results

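The 4 transcripts described here are Gm23935, Gm26917, CT010467.1 and Mir6236, gene rows of the long-RNA abundance tables whose sequence or position belongs to ribosomal RNA (rRNA) or to copies of it. They were selected on measured levels in these libraries, so their own levels are given library by library as a description and carry no test. They are 4 of the 53975 gene identifiers in the tables, and all 4 were found, each under 1 identifier. Long RNA was sequenced in 31 libraries. Of these, 17 came from hippocampus of single mice and 14 from the HT-22 line, cultured cells of mouse hippocampal origin. The values are TPM, an abundance that divides read coverage by transcript length and scales every library to the same total, so that a rise of one very abundant transcript lowers the TPM of all others.

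The mice carried the App NL-G-F alleles, a humanised App gene with familial Alzheimer mutations (called APP), or were C57BL/6J wild-type mice (WT). Hippocampi of the left and right hemisphere were pooled per mouse. Ages were 3, 6 and 12 months. Each combination of genotype and age had 3 mice, except that WT had 2 at 3 months. All HT-22 cells, at passage 4, received a locked nucleic acid oligonucleotide (LNA) for 24 hours and then a peptide at 30 µM, so no group was untreated. The LNA was directed against Hsf1, the master regulator of the heat shock response, at 150 nM or had a scrambled sequence at 50 µM as the labels state it. The peptide was amyloid beta 1-42 (Aβ42) or the same residues in reverse order. Each peptide had 4 libraries with scramble LNA and 3 libraries with anti-Hsf1 LNA. Every long-RNA library was depleted of rRNA before sequencing, and none of the values below is a total rRNA level.

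In growing cells, RNA polymerase I transcribes the rRNA genes as one long precursor that opens with a 5′ external transcribed spacer and goes on to the 18S, 5.8S and 28S rRNAs. The spacers are cut out in the nucleolus and degraded, largely by the RNA exosome, while the mature rRNAs are modified and built into ribosomes. Depletion kits hybridise probes to the mature rRNAs, so the spacers and the fragments that escape the probes are what a depleted library still holds. In neurons, rRNA synthesis follows growth and activity, and the nucleolus responds to cellular stress.

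Gm26917 (ENSMUSG00000097971, annotated as a lincRNA) spans chromosome 17, 39843013 to 39846341 on the plus strand of GRCm38, a length of 3329 bases with a GC content of 69.1%. It ends 12 bases before Rn18s-rs5, an 18S pseudogene that RefSeq places at 39846354 to 39848202, which gives Gm26917 the place of the 5′ external transcribed spacer in this rRNA-like unit. CT010467.1 (ENSMUSG00000106106, annotated as rRNA) lies at 39846353 to 39848827 on the minus strand, and its span holds 100% of the Rn18s-rs5 span. The plus-strand lincRNA Gm42418 shares 1831 bases with CT010467.1, leaving 605 bases of CT010467.1 before it and 39 after it. AY036118, another minus-strand lincRNA, lies inside both. The library kit is not described as strand-specific in the sources used here, so the strand behind the values of these overlapping transcripts is unknown, and how reads over their shared bases were divided among them was not tested. The stretch that joins Gm26917 to the 18S-like sequence (chr17:39846282-39846413, plus strand, GRCm38.p6 from RefSeq) is shown because it marks where the spacer-like transcript stops and the 18S-like one starts. The capitals are the first bases of Rn18s-rs5, and the last 12 lower-case bases before them lie between Gm26917 and Rn18s-rs5.
Gm26917 to Rn18s-rs5: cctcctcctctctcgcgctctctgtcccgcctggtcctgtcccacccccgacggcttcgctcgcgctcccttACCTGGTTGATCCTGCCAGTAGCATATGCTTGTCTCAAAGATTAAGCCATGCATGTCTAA

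**Figure D1:**
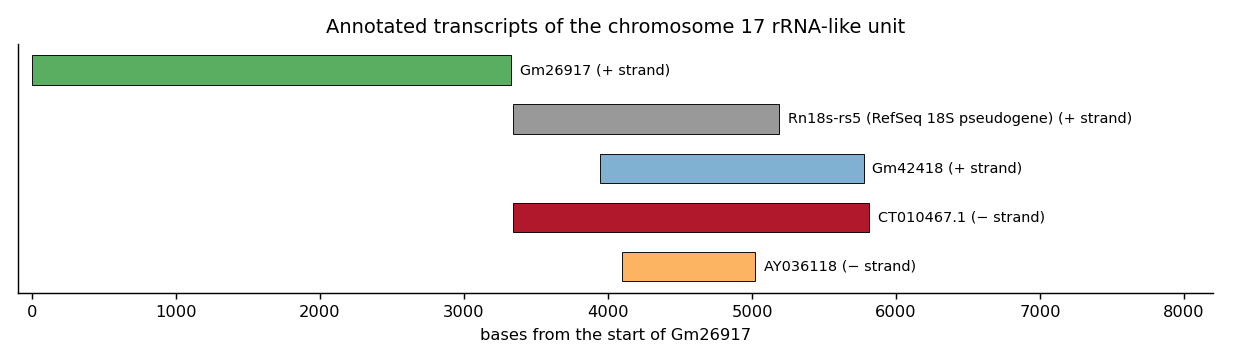
Annotated transcripts of the rRNA-like unit on chromosome 17, by distance in bases from the start of Gm26917, with the strand beside each name. Gm26917 ends 12 bases before the 18S pseudogene Rn18s-rs5, and CT010467.1 covers the whole pseudogene and overlaps Gm42418 over 1831 bases.

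Gm23935 (ENSMUSG00000076258) is a predicted miRNA gene of 57 bases on chromosome 16, 11144125 to 11144181, plus strand. It lies within the span of Zc3h7a, a zinc finger gene on the opposite strand. Its letters are known from 28S rRNA. No 28S sequence was compared here. The same 57 bases stand at 3 places in the assembled chromosomes, as Gm23935, as Gm24270 (chr9:56223715-56223771, minus strand, inside Peak1) and as Gm24245 (chr4:139338304-139338360, plus strand). Near copies are Gm24187 (chr13:9834469-9834525, minus strand), Gm25911 (chr1:167340369-167340424, minus strand) and Gm23388 (chr8:85112012-85112068, minus strand, inside Zfp791). The sequences are shown in the direction of each gene's strand, because reads of one copy can be placed at another. Capitals mark bases that differ from Gm23935.
Gm23935: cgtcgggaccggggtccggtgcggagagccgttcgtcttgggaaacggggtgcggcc
Gm24270: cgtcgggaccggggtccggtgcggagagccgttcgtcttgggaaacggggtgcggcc
Gm24245: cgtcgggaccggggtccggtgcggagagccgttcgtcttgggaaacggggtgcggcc
Gm24187: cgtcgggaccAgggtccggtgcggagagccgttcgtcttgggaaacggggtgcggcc
Gm25911: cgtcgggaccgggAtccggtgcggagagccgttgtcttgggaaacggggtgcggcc
Gm23388: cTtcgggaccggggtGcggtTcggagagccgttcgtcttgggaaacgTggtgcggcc

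Counted from 1 at the 5′ end of Gm23935, Gm24187 carries G11A, and Gm25911 carries G14A and lacks 1 base. Gm23388 carries G2T, C16G, G21T and G48T. The match goes on beyond the 57 bases. With 200 bases added on either side, the best local alignment to Gm23935 had 92.1% identity over 391 columns for Gm24270, 90.4% over 342 for Gm24245, 98.2% over 228 for Gm24187, 97.4% over 310 for Gm25911 and 88.4% over 241 for Gm23388. The 57 bases do not occur in the chromosome 17 unit on either strand.

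Mir6236 (ENSMUSG00000098973) is an annotated miRNA gene on chromosome 9. Its hairpin, too, carries letters known from 28S rRNA. A fragment of a longer rRNA-like RNA and a processed miRNA would fall on the same annotation.

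Before the members, the libraries were checked once against their labels. In the mouse libraries all 5 neuronal markers were detected, Snap25 at 494 to 1196 TPM and Camk2a at 211.2 to 933 TPM, and those of astrocytes, microglia and oligodendrocytes likewise. The choroid plexus marker Ttr ran from 30.6 to 2407 TPM between mice, and the blood marker Hbb-bs from 32.4 to 77.0 TPM. In HT-22 cells the neuronal markers Snap25, Syt1, Prox1 and Neurod6 were listed at 0 in all 14 libraries, and Camk2a reached 1.14 TPM, so the hippocampal neuron label of this line is not borne out by these markers. The ratio of deposited Coverage to FPKM, which tracks depth, spanned 1.42 to 3.04 among mice and 0.724 to 2.60 among HT-22 libraries, and no pair of libraries held identical values. In bulk RNA, fewer cells of a type and less RNA per cell cannot be told apart.

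Together the 4 transcripts took 3.31% to 25.2% of TPM in the mouse libraries, with a median of 13.4%. In HT-22 cells they took 10.3% to 18.2% in the 11 libraries of the other 3 groups, and 36.0%, 21.8% and 47.7% in the 3 libraries of Aβ42 with anti-Hsf1 LNA. Protein-coding genes held 48.1% to 61.8% of TPM in those 11 libraries and 32.1%, 42.1% and 30.1% in the 3. With the 4 transcripts taken out of the total, the coding share was 56.4% to 68.9% in the 11 libraries and 50.2%, 53.8% and 57.5% in the 3.

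Gm23935 was the most abundant gene of the table in 7 of 17 mouse libraries and in 13 of 14 HT-22 libraries, and it was listed above 0 in all of them. In APP mice it took 9.90%, 24.3% and 15.5% of TPM at 3 months, 16.2%, 22.8% and 6.29% at 6 months, and 13.4%, 18.4% and 17.8% at 12 months. In WT mice it took 10.9% and 2.45% at 3 months, 12.8%, 10.8% and 8.67% at 6 months, and 9.88%, 14.9% and 12.3% at 12 months. Mice of the same genotype and age thus differed up to 4.48-fold (WT at 3 months), and APP and WT overlapped at every age.

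The Gm23935 mean was 16.6% ± 7.28 (SD, n = 3) in APP against 6.70% ± 6.01 (SD, n = 2) in WT mice at 3 months. At 6 months the means were 15.1% ± 8.31 and 10.8% ± 2.08 (n = 3 each), and at 12 months 16.6% ± 2.72 and 12.4% ± 2.53 (n = 3 each). On log2(TPM + 1), APP minus WT was 1.58 at 3 months, 0.32 at 6 months and 0.43 at 12 months, with SDs within groups of 1.175, 0.71 and 0.28. The 3-month difference, with 2 WT mice, was 0.50 without WT replicate 2 and 2.67 without WT replicate 1. The 6-month difference turned to -0.40 when libraries were scaled by the median of ratios, which sets the typical gene equal between libraries. It also changed sign, to -0.07, without APP replicate 2. The highest level in this genotype comparison was that of 1 APP mouse at 3 months, and the lowest that of 1 WT mouse at 3 months.

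In HT-22 cells Gm23935 took 8.45%, 13.0%, 5.37% and 10.6% of TPM with Aβ42 and scramble LNA, and 11.9%, 8.42%, 9.75% and 8.94% with reverse peptide and scramble LNA. With reverse peptide and anti-Hsf1 LNA it took 11.5%, 11.1% and 10.0%. With Aβ42 and anti-Hsf1 LNA it took 27.8%, 15.5% and 44.3%. All 3 of these libraries lay above the other 11, and they also differed most among themselves, 2.86-fold. The group mean was 29.2% ± 14.5 (SD, n = 3), against 10.8% ± 0.736 (n = 3) with reverse peptide and the same LNA and 9.37% ± 3.25 (n = 4) with Aβ42 and scramble LNA. These differences were 1.3 and 1.58 on log2(TPM + 1), and 1.90 and 2.31 after median of ratios.

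Because a 57-base gene needs few reads to reach a high TPM, the share of aligned bases (deposited Coverage times exonic length) gives another view. Gm23935 held 0.0885% to 1.09% of aligned bases in mouse, 0.163% to 0.449% in 11 HT-22 libraries, and 1.34%, 0.620% and 2.42% in the 3 of Aβ42 with anti-Hsf1 LNA. Gm26917 held more aligned bases than Gm23935 in all 31 libraries, at 0.901% to 2.65% in mouse and 5.5% to 9.48% in HT-22 cells. The libraries of Aβ42 with anti-Hsf1 LNA thus stood above the other HT-22 libraries in Gm23935 on both measures. Both scale the same read coverage of Gm23935, so the second is no separate support.

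**Figure D2:**
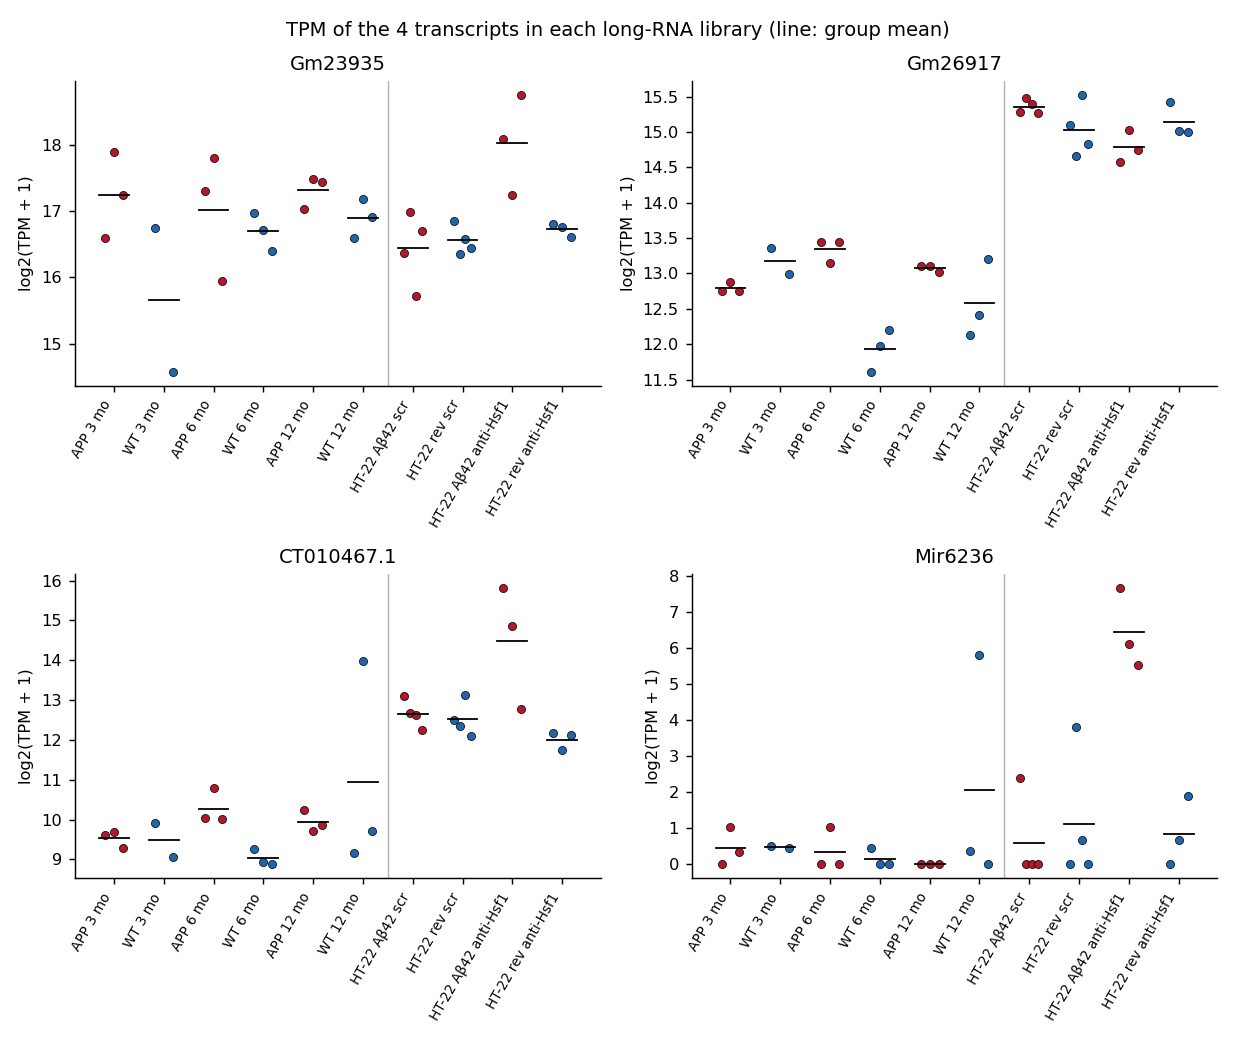
Level of each transcript as log2(TPM + 1) in every long-RNA library. Points are libraries (red for APP or Aβ42, blue for WT or reverse peptide), the line is the group mean, and the grey line separates mouse from HT-22. Gm23935 and Mir6236 are high in the libraries of Aβ42 with anti-Hsf1 LNA, and CT010467.1 is high in replicates 1 and 2 of that group but not in replicate 3 (6967 TPM). WT replicate 2 at 12 months is high in CT010467.1 (16067 TPM) and Mir6236 (55.5 TPM) only.

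Gm26917, the spacer-like transcript, was higher in every HT-22 library than in any hippocampus library. In APP mice it was at 6890, 7537 and 6920 TPM at 3 months, 11199, 9046 and 11151 TPM at 6 months, and 8784, 8815 and 8330 TPM at 12 months. In WT mice it was at 10489 and 8142 TPM at 3 months, 3127, 4009 and 4700 TPM at 6 months, and 4490, 5439 and 9477 TPM at 12 months. APP and WT did not overlap at 3 months, where WT was higher, nor at 6 months, where APP was higher, and they overlapped at 12 months. Over all genes tested, limma on log2(TPM + 1) called 0.398% at 3 months, 58% at 6 months and 0.639% at 12 months, so a gene higher in APP at 6 months was the common case. A limma call is a different measure from non-overlap. The share of all genes without overlap is not given, so how common the separation at 3 months is among genes is unknown here.

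The mean of Gm26917 at 6 months was 10465.4 ± 1229.8 TPM in APP and 3945.2 ± 788.4 TPM in WT mice (SD, n = 3 each), a difference of 1.42 on the log2 scale. It was 0.70 after median of ratios. The median change of all genes tested was 0.60 at 6 months on TPM. At 3 months the difference was -0.38 on TPM and -0.18 after median of ratios, against a median of all genes of -0.16 on TPM. At 12 months it was 0.49 and 0.35. Gm42418, which overlaps CT010467.1, rose with Gm26917 at 6 months (log2 change 1.25 ± 0.23 SE, limma adjusted p = 0.000651), and this call was lost after median of ratios (0.53 ± 0.19 SE, limma adjusted p = 0.17).

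The genotype groups at 6 and 12 months also differed in sex-linked transcripts. Xist, expressed from the inactive X chromosome, was at 142 to 201 TPM in APP and at 0.215 to 0.438 TPM in WT mice at 6 months, and the Y-linked Ddx3y was at 0 to 0.0652 and at 19.3 to 20.5 TPM. At 12 months Ddx3y reached 0.0828 TPM in APP and 23.4 TPM in WT mice, while at 3 months it reached 0.0539 TPM in APP and 0.0274 TPM in WT mice. The labels used here give no sex, so genotype and these sex-linked differences cannot be told apart at 6 and 12 months.

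In HT-22 cells Gm26917 was at 39696, 45882, 43104 and 39462 TPM with Aβ42 and scramble LNA, and at 35249, 25870, 47136 and 29008 TPM with reverse peptide and scramble LNA. With anti-Hsf1 LNA it was at 43771, 33079 and 32629 TPM under reverse peptide and at 24522, 33426 and 27519 TPM under Aβ42. The last group thus did not share the high values seen for Gm23935. Its difference from Aβ42 with scramble LNA was -0.57 on log2(TPM + 1), with no overlap, and turned to 0.15 after median of ratios. The difference from reverse peptide with anti-Hsf1 LNA was -0.36, with overlap, and turned to 0.24. For comparison, limma called 50.7% of all genes in the first of these contrasts, with 8740 of 8766 called genes lower, and 24.3% in the second, with 4190 of 4197 lower. Gm42418 lay at 0.219 to 0.315 times Gm26917 in all mouse libraries and at 0.308 to 0.417 times in all HT-22 libraries.

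CT010467.1, the minus-strand transcript over the 18S-like sequence, ranked 7 to 76 by TPM in mouse libraries and 4 to 26 in HT-22 libraries. In a few libraries it stood far above its level in the rest. In APP mice it was at 787, 824 and 624 TPM at 3 months, 1042, 1770 and 1030 TPM at 6 months, and 1199, 840 and 925 TPM at 12 months. In WT mice it was at 957 and 530 TPM at 3 months, 615, 489 and 468 TPM at 6 months, and 566, 16067 and 843 TPM at 12 months. Replicate 2 of WT at 12 months thus stood far above the next highest mouse library, at 1770 TPM, and its group mean of 5825.5 ± 8870.7 TPM (SD, n = 3) rests on it. Without this library the APP minus WT difference at 12 months changed sign, from -1.01 to 0.50 on log2(TPM + 1). At 6 months APP lay above WT without overlap, by 1.25 on TPM and 0.53 after median of ratios, against a median change of all genes of 0.60 on TPM.

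In HT-22 cells CT010467.1 was at 8727, 6519, 6366 and 4831 TPM with Aβ42 and scramble LNA, and at 5818, 5194, 8937 and 4356 TPM with reverse peptide and scramble LNA. With anti-Hsf1 LNA it was at 4607, 3425 and 4423 TPM under reverse peptide and at 58027, 29804 and 6967 TPM under Aβ42. Replicates 1 and 2 of the last group stood above all other HT-22 libraries, and replicate 3, which had the highest Gm23935, lay within their range. The Aβ42 libraries lay above the reverse-peptide libraries under anti-Hsf1 LNA without overlap, by 2.48 on log2(TPM + 1), and overlapped those of Aβ42 with scramble LNA, from which they differed by 1.83, with SDs within groups of 1.12 and 1.13.

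Mir6236 was listed at 0 in 9 of 17 mouse libraries and 6 of 14 HT-22 libraries, and at 1.06 TPM or less in all mouse libraries but replicate 2 of WT at 12 months, which held 55.5 TPM. This is the library that was also high in CT010467.1. In HT-22 cells it was at 205, 68.5 and 45.7 TPM in the 3 libraries of Aβ42 with anti-Hsf1 LNA. Elsewhere it reached 13.0 TPM in replicate 2 of reverse peptide with scramble LNA, 4.297 TPM in replicate 1 of Aβ42 with scramble LNA, 2.73 TPM in replicate 3 of reverse peptide with anti-Hsf1 LNA, and at most 0.589 TPM in the others. The mean of the 3 Aβ42 libraries with anti-Hsf1 LNA was 106.5 ± 86.3 TPM (SD, n = 3). It was 1.10 ± 1.44 TPM (n = 3) in the reverse-peptide libraries of that LNA and 1.07 ± 2.15 TPM (n = 4) with Aβ42 and scramble LNA. Small-RNA molecules of mature size were not what these long-RNA libraries were made for, and whether the signal is a miRNA was not tested.

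The ratios between the transcripts show which of them moved apart. Gm23935 stood at 3.00 to 41.0 times Gm26917 in mouse libraries, and at 1.25 to 3.37 times in the 11 HT-22 libraries outside Aβ42 with anti-Hsf1 LNA. In the 3 libraries of that group the ratio was 11.3, 4.62 and 16.1. In WT mice at 6 months it was 41.0, 26.9 and 18.5, and in APP mice at 6 months 14.5, 25.2 and 5.64.

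CT010467.1 stood at 0.0651 to 0.197 times Gm26917 in 16 mouse libraries and at 2.95 times in replicate 2 of WT at 12 months. In HT-22 cells the ratio was 0.104 to 0.220 in the 11 libraries of the other groups and 2.37, 0.892 and 0.253 in the 3 of Aβ42 with anti-Hsf1 LNA. The deposited values of CT010467.1 and the overlapping Gm42418 also differed in ratio, with CT010467.1 at 11.1 times Gm42418 in replicate 2 of WT at 12 months and 6.99, 2.52 and 0.742 times in the 3 libraries, against 0.270 to 0.715 times in the other 16 mouse libraries and 0.312 to 0.600 times in the other 11 HT-22 libraries. Mir6236 stood at 2.30 to 6.55 TPM per 1000 TPM of CT010467.1 in these 3 libraries and at 3.46 in replicate 2 of WT at 12 months, while replicate 2 of reverse peptide with scramble LNA, at 2.50, lay within that range.

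**Figure D3:**
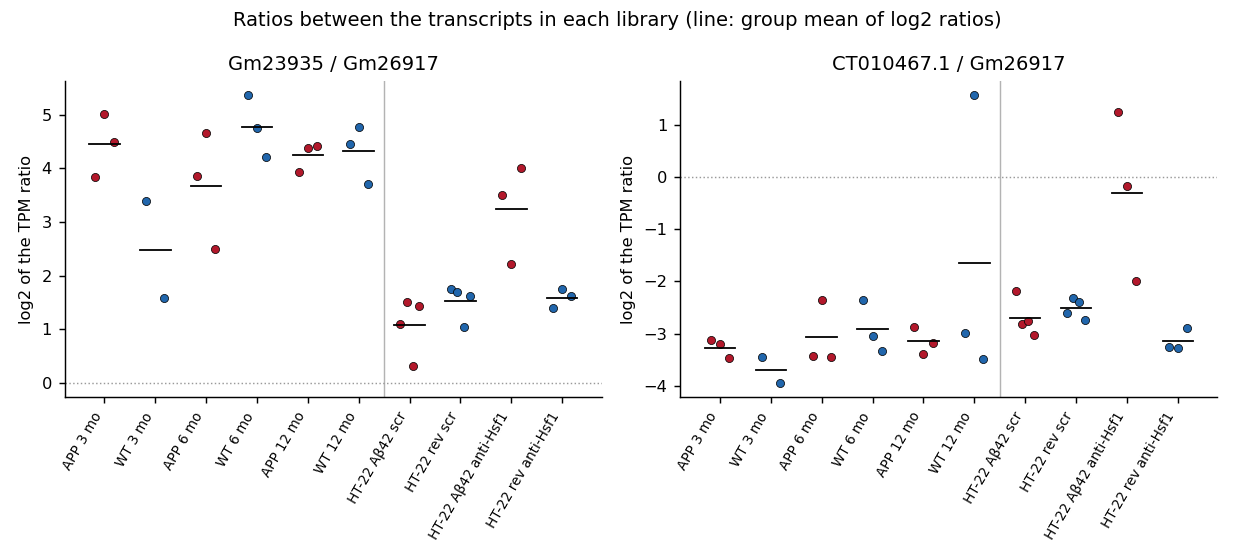
Ratio of Gm23935 (left) and CT010467.1 (right) to Gm26917 in each library, as log2 of the TPM ratio, with the group mean as a line and equal levels as the dotted line. Replicate 2 of WT at 12 months stands alone among mice at 2.95 in the CT010467.1 ratio, and the libraries of Aβ42 with anti-Hsf1 LNA lie above all other HT-22 libraries in both.

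The genomic copies of Gm23935 have rows of their own, but these are not independent of the Gm23935 row. The sequence is shared or nearly so, reads of one copy can be placed at another, and the copies were named after their values were seen. Their limma values below are therefore a description and no separate support. Gm24270, identical in its 57 bases, was at 803 to 1982 TPM in the 3 libraries of Aβ42 with anti-Hsf1 LNA and at 16.7 to 266 TPM in the other 11 HT-22 libraries. Gm24187 was at 511 to 1268 TPM against 5.55 to 126 TPM, and Gm25911 at 148 to 305 TPM against 0.858 to 39.3 TPM. For these 3 copies the 3 libraries did not overlap the other 11, and the share of all genes separated in this way is not given. Gm24245, also identical, was at 15.5, 12.4 and 73.1 TPM against 1.11 to 45.2 TPM, and Gm23388 did not pass 0.213 TPM in HT-22 cells.

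On TPM, limma over all genes called Gm24270 (log2 change 4.83 ± 0.77 SE, adjusted p = 0.000991), Gm24187 (5.64 ± 0.93, adjusted p = 0.0011) and Gm25911 (5.97 ± 0.86, adjusted p = 0.000963) higher with anti-Hsf1 than with scramble LNA under Aβ42. After median of ratios 4 of 17205 genes passed the threshold in this contrast, all higher. They were these 3 copies, each with a limma adjusted p = 0.041, and Mir6236. Mir6236 was selected on its level in these libraries, and the copies share or nearly share the sequence of a member so selected. The passing of these 4 genes is therefore no test. The 3 copies changed by 5.54 (Gm24270), 6.34 (Gm24187) and 6.61 (Gm25911) on the log2 scale there. The count of 4 fell to 0 without replicate 1, 3 or 4 of Aβ42 with scramble LNA or without replicate 1 of Aβ42 with anti-Hsf1 LNA, fell to 1 without replicate 2 of the latter, and rose to 16 without its replicate 3. With the 4 members taken out of the TPM total, the 3 copies changed by 5.25 to 6.46 with limma adjusted p = 0.0784 each. Gm24245 was not called on TPM (1.17 ± 0.87 SE, limma adjusted p = 0.276).

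Between Aβ42 and reverse peptide under anti-Hsf1 LNA the same 3 copies were called on TPM, with log2 changes of 4.04 (Gm24270), 4.63 (Gm24187) and 4.16 (Gm25911) and limma adjusted p-values of 0.0143, 0.0151 and 0.0154. After median of ratios the log2 changes were 4.64 (Gm24270), 5.22 (Gm24187) and 4.74 (Gm25911), larger than on TPM, and none was called (limma adjusted p = 0.375, 0.41 and 0.41). This contrast and the previous one share the 3 libraries of Aβ42 with anti-Hsf1 LNA. In mice none of the copies was called at any age on TPM. Replicate 2 of WT at 12 months again stood alone, at 863 TPM of Gm24270 against 26.6 to 216 TPM in the other 16 mouse libraries, 367 against 4.47 to 63.3 TPM of Gm24187, and 93.9 against 1.41 to 21.01 TPM of Gm25911. Gm23935 itself took 14.9% of TPM in that mouse, the highest share of the 8 WT mice and within the range of the APP mice.

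**Figure D4:**
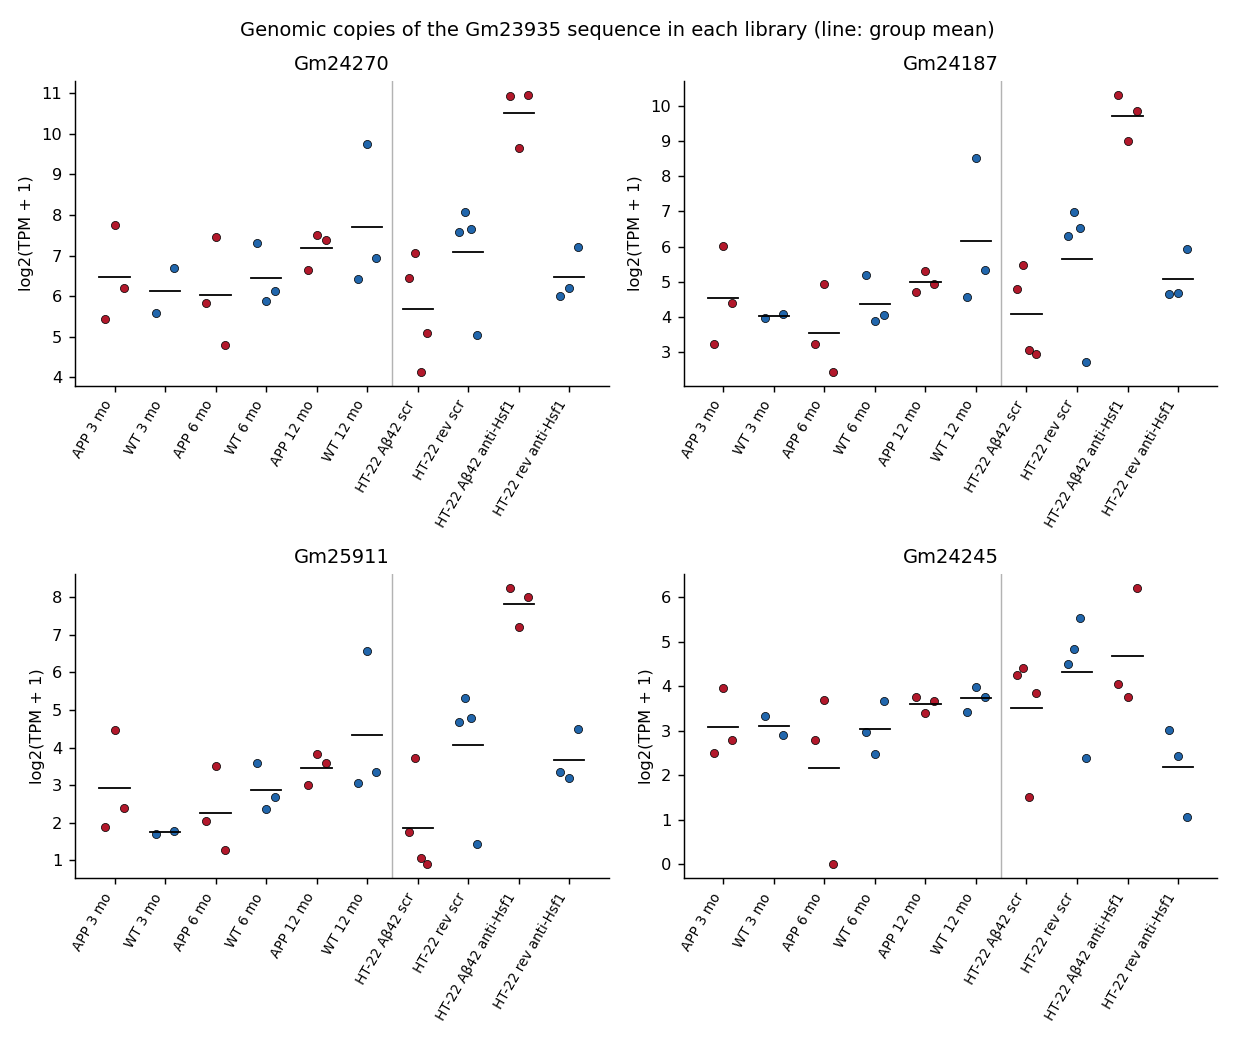
Level of 4 genomic copies of the Gm23935 sequence as log2(TPM + 1) in every library, with the group mean as a line. Gm24270, Gm24187 and Gm25911 are high in the 3 libraries of Aβ42 with anti-Hsf1 LNA and in replicate 2 of WT at 12 months (863, 367 and 93.9 TPM), and Gm24245, which has the same 57 bases as Gm23935, stays at 73.1 TPM or less.

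Genes at other rRNA-like loci were read in the same libraries. Lars2, a mitochondrial leucyl-tRNA synthetase gene, was at 75.1 TPM in replicate 1 of Aβ42 with anti-Hsf1 LNA and at 9.504 to 19.1 TPM in the other 13 HT-22 libraries. Cmss1, a ribosomal small-subunit gene, lay at 5.74 to 17.8 TPM in HT-22 cells with no call in any contrast. Zc3h7a, whose span holds Gm23935, was lower with anti-Hsf1 than with scramble LNA under Aβ42 on TPM, while Gm23935 was higher. The log2 change of Zc3h7a was -0.85 ± 0.22 SE (limma adjusted p = 0.00567). Zc3h7a was not called with the members taken out of the total (-0.44 ± 0.20 SE, limma adjusted p = 0.191). Under anti-Hsf1 LNA it was also called lower with Aβ42 than with reverse peptide on TPM (-0.67 ± 0.23 SE, limma adjusted p = 0.0482). That call, too, was lost without the members (limma adjusted p = 0.807). AY036118, antisense to Gm42418, lay between 0.0853 and 4.61 TPM over all libraries. In mice at 6 months, where 58% of all genes were called on TPM, Lars2 and Zc3h7a were called higher in APP. Their log2 changes were 0.75 and 0.69 (limma adjusted p = 0.0078 and 0.03). Neither was called after median of ratios (limma adjusted p = 0.777 and 0.991).

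The genes most like each member were ranked by Pearson's r of log2(TPM + 1) over the libraries of a system, as a description of libraries that share scaling and fall into groups. Over the 14 HT-22 libraries the 3 genes closest to Gm23935 were its copies Gm24270 (r = 0.846), Gm24187 (0.793) and Gm25911 (0.792), followed by Mir6236 (0.685) and the snRNA gene Gm26357 (0.593). With the other genes rescaled without the members, the same 3 copies led, at 0.871, 0.821 and 0.819, followed by 2610001J05Rik (0.801) and Zfp72 (0.772). Over the 17 mouse libraries the closest were Gm27833 (0.765), Snord82 (0.755), Ndufaf6 (0.745), Gm12039 (0.731) and Gm25156 (0.731), and on the rescaled values Gm10146 (0.816), Ndufaf6 (0.81), Gm27833 (0.798), Rps19-ps4 (0.79) and Gm19810 (0.781). The copies were not among the first 5 in mice.

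Gm26917 was closest to Gm42418 in mice (r = 0.976), followed by Rptor (0.973), Chd4 (0.968), Pnmal2 (0.961) and Snx30 (0.959), on TPM as deposited. On the rescaled values its closest genes were Rcc2 (0.974), Furin (0.967), Noc2l (0.963), U2af2 (0.962) and Polr2a (0.961), and Gm42418 was no longer among the first 5. In HT-22 cells its closest genes were Rab11fip5 (0.959), Miga2 (0.941), Homer3 (0.938), Gipc1 (0.938) and Rfx1 (0.937), and on the rescaled values Stim2 (0.928), Tns3 (0.922), Epc2 (0.893), Dtx3 (0.891) and Ttll4 (0.889). With Gm23935 it had r = 0.045 in mice and -0.49 in HT-22 cells. CT010467.1 was closest to Mir6236 in both systems (r = 0.899 over mice and 0.784 over HT-22 libraries), and its r with Gm26917, which neighbours it on chromosome 17, was 0.133 in mice and -0.292 in HT-22 cells. Among mice, CT010467.1 and Mir6236 were both highest in replicate 2 of WT at 12 months. Among HT-22 libraries, both were highest in replicate 1 of Aβ42 with anti-Hsf1 LNA. Their r without these libraries was not computed.

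Since TPM divides by the library total, a member that takes a larger share lowers every other gene. The counts of called genes were therefore compared between TPM as deposited, TPM recomputed without the 4 members, and median of ratios. With anti-Hsf1 against scramble LNA under Aβ42, limma called 8766 of 17291 genes on TPM, 26 higher and 8740 lower. Without the members it called 0 of 17939 (0%), with 4612 at an unadjusted p below 0.05 and a lowest adjusted p of 0.0784, and leaving Gm23935 alone out of the total also gave 0, with 5234 at an unadjusted p below 0.05. Median of ratios gave 4, with 1553 at an unadjusted p below 0.05. The median log2 change of all genes went from -0.62 on TPM to -0.26 without the members. The members took a larger share of TPM in every library of Aβ42 with anti-Hsf1 LNA than in any other HT-22 library. Taking them out could only raise the other genes there, and their part in the lower calls was not tested by it. Without replicate 3 of Aβ42 with anti-Hsf1 LNA, the count with the members left out rose from 0 to 978.

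For Aβ42 against reverse peptide under anti-Hsf1 LNA, limma called 4197 of 17291 genes on TPM and 0 of 17939 (0%) without the members, with 1244 at an unadjusted p below 0.05. Median of ratios also gave 0, with 798 at an unadjusted p below 0.05. Here too, taking the members out could only raise the other genes in the Aβ42 libraries, and their part was not tested by it. The TPM count itself fell to 0 without replicate 1 of Aβ42 with anti-Hsf1 LNA or without replicate 1 or 2 of reverse peptide with anti-Hsf1 LNA. It fell to 4 without replicate 3 of Aβ42 with anti-Hsf1 LNA, to 2248 without replicate 3 of reverse peptide with anti-Hsf1 LNA, and rose to 6352 without replicate 2 of Aβ42 with anti-Hsf1 LNA. The other HT-22 contrasts, Aβ42 against reverse peptide with scramble LNA and anti-Hsf1 against scramble LNA with reverse peptide, had 0 calls (0%) by limma on all 3 scales, with 1489 and 468 genes at an unadjusted p below 0.05 on TPM, 1818 and 530 without the members and 854 and 624 after median of ratios.

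The mouse contrasts were counted in the same way. At 3 months 71 genes were called on TPM, 63 of them lower in APP, 12 (0.0642% of 18681) without the members, 5 of them lower, and 53 after median of ratios, 31 of them lower. At 3 months the TPM count ranged from 2 without WT replicate 2, which had the lowest Gm23935, to 205 without APP replicate 3, with 11 without APP replicate 1 and 8 without WT replicate 1. Without the members it was 2 without APP replicate 1 or WT replicate 2, and 144 without APP replicate 3. At 6 months the counts were 10339 on TPM and 12103 (64.8%) without the members, 12031 of them higher in APP, and 10332 of the 12103 were also called on TPM. The members took a larger mean share of TPM in APP than in WT at this age, so taking them out could only raise APP against WT, and their part in the wide difference was not tested by it. Median of ratios gave 268, of which 198 were lower. At 12 months the counts were 114 on TPM, 171 (0.915%) without the members and 80 after median of ratios. The 12-month count on TPM fell to between 56 and 75 without any 1 of APP replicates 1, 2 and 3 or WT replicates 1 and 2, and without the members it fell to between 64 and 83 without any 1 of these and rose to 416 without WT replicate 3.

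**Figure D5:**
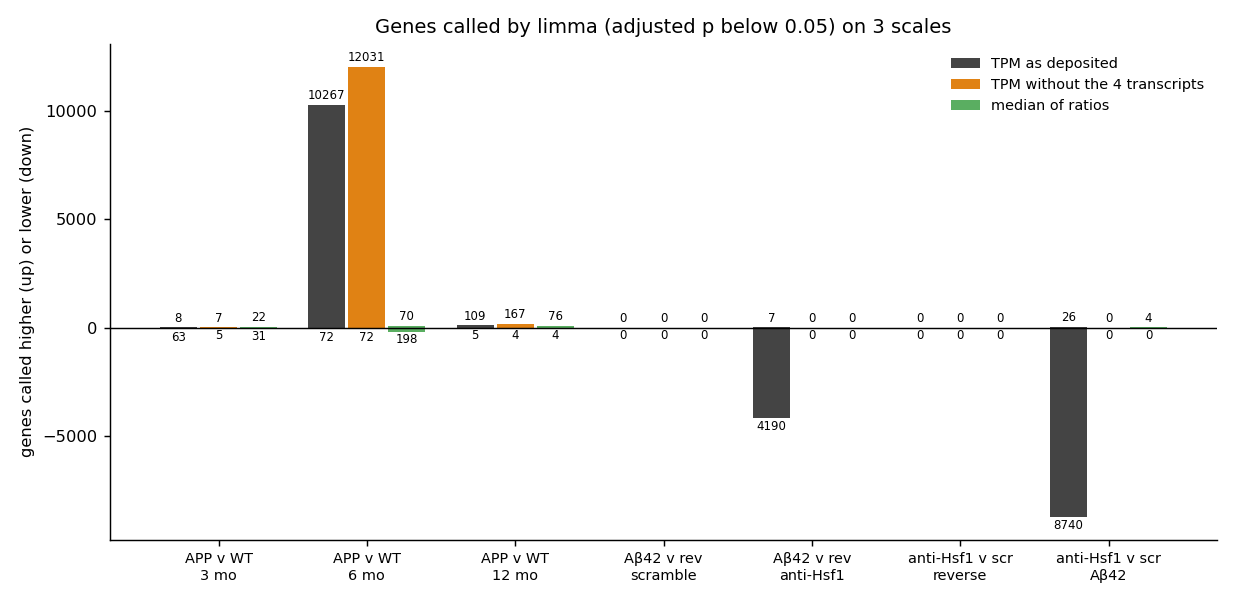
Genes called by limma (adjusted p below 0.05) in each contrast, higher above 0 and lower below 0, on TPM as deposited, TPM recomputed without the 4 transcripts, and median of ratios. In both contrasts that contain Aβ42 with anti-Hsf1 LNA against another group, 4190 and 8740 lower calls on TPM fall to 0 without the 4 transcripts, while at 6 months the higher calls number 10267 on TPM and 12031 without them. The 4 transcripts took larger mean shares in Aβ42 with anti-Hsf1 LNA and in APP at 6 months. Leaving them out could only raise the other genes there.

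The targeted gene of the LNA was read against the same scaling. Hsf1 was at 27.7, 44.0 and 30.8 TPM with Aβ42 and anti-Hsf1 LNA and at 60.3, 70.7, 77.1 and 79.99 TPM with Aβ42 and scramble LNA, with no overlap. Without the members in the total it was at 43.3, 56.2 and 58.8 against 69.5, 86.5, 86.0 and 94.2, again with no overlap. The share of all genes without overlap is not given. In this contrast limma called 50.7% of all genes on TPM, 8740 of 8766 lower. Without the members 4612 of 17939 genes had an unadjusted p below 0.05 by limma. The log2 change of Hsf1 was -1.08 ± 0.19 SE on TPM (limma adjusted p = 0.00113), -0.67 ± 0.18 without the members (limma adjusted p = 0.0832) and -0.37 ± 0.15 after median of ratios (limma adjusted p = 0.524). With reverse peptide Hsf1 was at 59.9, 45.7 and 49.9 TPM with anti-Hsf1 LNA and at 54.0, 42.9, 70.6 and 58.9 TPM with scramble LNA, which overlap (log2 change -0.11 ± 0.19 SE, limma adjusted p = 0.997).

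The proteins that make and process rRNA were read from 3 gene lists. Of 15 genes of RNA polymerase I subunits and factors, limma called 0 at 3 and at 12 months in mice on all 3 scales, and likewise 0 of 40 genes of rRNA modification and processing and 0 of 19 genes of rRNA and noncoding RNA decay found in the files. On TPM, 1, 3 and 3 of them had an unadjusted p below 0.05 at 3 months and 0, 2 and 0 at 12 months, and with the other scales these counts reached at most 5. At 6 months, without the members, 9 of 15, 37 of 40 and 16 of 19 were higher in APP, against 64.8% of all genes tested called in either direction. Their median log2 changes were 0.61, 0.71 and 0.64, and that of all genes was 0.68. After median of ratios limma called 0, 1 and 0, with 5, 6 and 3 at an unadjusted p below 0.05, and the 1 was Nhp2, an H/ACA snoRNP protein, lower in APP (-0.77 ± 0.15 SE, limma adjusted p = 0.0235).

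The Pol I genes with the largest 6-month changes without the members were Taf1c, a subunit of the promoter selectivity factor (5.02 ± 1.56 against 1.495 ± 0.233 rescaled TPM, SD, n = 3 each, log2 change 1.24 ± 0.26 SE, limma adjusted p = 0.000855), Polr1b, the second largest polymerase subunit (1.15 ± 0.26 SE, limma adjusted p = 0.00134), and Rrn3, the initiation factor that recruits the polymerase (0.90 ± 0.14 SE, limma adjusted p = 0.000126). Among processing genes they were Rrp1b (1.15 ± 0.33 SE, limma adjusted p = 0.00723), Rrs1 (1.03 ± 0.19 SE, limma adjusted p = 0.000309) and Noc2l (1.00 ± 0.15 SE, limma adjusted p = 0.000124), which act in nucleolar ribosome assembly or beside it. Among decay genes they were Tent4a and Papd5, noncanonical poly(A) polymerases that tag RNA for the exosome (1.04 ± 0.19 SE and 0.89 ± 0.24 SE, limma adjusted p = 0.000375 and 0.00442), and Zcchc7, their zinc-knuckle partner (0.83 ± 0.17 SE, limma adjusted p = 0.000711). None of these 9 was called after median of ratios, where their log2 changes lay between 0.05 and 0.63.

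In HT-22 cells 9 of 15 Pol I genes, 33 of 40 processing genes and 17 of 18 tested decay genes were lower with anti-Hsf1 than with scramble LNA under Aβ42 on TPM, against 50.7% of all genes called. Without the members limma called 0 of each, with 6, 22 and 11 at an unadjusted p below 0.05, and the median log2 changes were -0.40, -0.69 and -0.44 against -0.26 for all genes, with 2, 1 and 1 genes above 0. After median of ratios the medians were -0.11, -0.40 and -0.15 against 0.003 for all genes, with 0 called by limma in each list and 3, 7 and 1 at an unadjusted p below 0.05. Under anti-Hsf1 LNA, Aβ42 against reverse peptide had 3, 2 and 10 lower calls on TPM, against 24.3% of all genes, and by limma 0 of each without the members, with 0, 0 and 0 at an unadjusted p below 0.05.

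Another list held 9 other abundant noncoding RNAs, among them the mitochondrial rRNAs mt-Rnr1 and mt-Rnr2, the signal recognition particle RNAs Rn7s1 and Rn7s2, the transcription regulator Rn7sk and the RNase components Rmrp and Rpph1. Of the 8 tested in HT-22 cells, 4 lay above 0 on TPM for anti-Hsf1 against scramble LNA under Aβ42, 4 without the members and 8 after median of ratios, with medians of -0.19, 0.23 and 0.53 against -0.62, -0.26 and 0.003 for all genes. For Aβ42 against reverse peptide under anti-Hsf1 LNA, 5, 7 and 8 lay above 0, with medians of 0.07, 0.48 and 0.67 against -0.52, -0.17 and 0.001. In both contrasts, where Gm23935 was also higher, the median of this list lay above that of all genes on each of the 3 scales. limma called mt-Rnr1 alone, on TPM in the first contrast (log2 change 1.21 ± 0.40 SE, adjusted p = 0.0223), and not without the members (1.63 ± 0.37 SE, limma adjusted p = 0.0832) or after median of ratios (1.93 ± 0.42 SE, limma adjusted p = 0.242).

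In APP mice at 6 months 4 of the 9 were lower on each of the 3 scales and 2 were higher on TPM and without the members, while 0 were higher by limma after median of ratios, where 7 of the 9 had an unadjusted p below 0.05. Without the members the log2 change was -1.71 ± 0.27 SE for Rn7sk (limma adjusted p = 0.000139) and 1.02 ± 0.27 SE for the neuronal lincRNA Meg3 (limma adjusted p = 0.00424). At 3 and 12 months limma called 0 of the 9 on all 3 scales, with at most 2 at an unadjusted p below 0.05.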

How the data were processed

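Long RNA from 17 mouse hippocampus and 14 HT-22 samples was sequenced after rRNA depletion, per the labels' protocols. Each deposited table gives TPM, FPKM and Coverage per gene, with 1 table per library and no pooling. TPM and FPKM were scaled by the authors for gene length and library total, per the file headers, and Coverage is the mean read depth as deposited. The submitters' processing notes name HISAT2 2.1.0, StringTie 1.3.4d, cutadapt 1.18, FastQC, BWA 0.7.17 and bedtools 2.26.0, with no role or order. The sources used here do not state strand or how reads with several matches were placed. The 31 short-RNA libraries were not used here. The sequence of Mir6236 is not reported here.

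TPM was summed per gene identifier. Within each system, all groups entered a single limma fit (version 3.58.1, R 4.3.3; scripts also in Python 3.11.15) of log2(TPM + 1), using trended, robust variances and genes averaging at least 1 TPM, at a Benjamini-Hochberg adjusted p below 0.05. A fold change on this scale understates the change of low genes. Where groups are said not to overlap, the share of all genes without overlap is not given, so this describes the libraries only. The fit was tested on simulated data: for APP against WT at 6 months (17840 genes, 200 changed) it recovered 70% of genes changed by a log2 of 1 and 95% of those changed by 2, with 6.25% of calls false. For Aβ42 against reverse peptide under anti-Hsf1 LNA (17291 genes, 200 changed) it recovered 47% and 95%, with 4.05% of calls false. Changes near a log2 of 1 were thus often missed there. In the deposited values these contrasts had 10339 and 4197 calls, with median log2 changes of all genes of 0.60 and -0.52. How many of those calls are false was not tested. Alternatives were TPM without the 4 transcripts or without Gm23935, median of ratios, a pseudocount of 0.1, no filter, a replicate block and each library left out.

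The members and gene lists were chosen with earlier results of these data known. The text names all 4 members, the up to 3 genes with the largest log2 change among those called per list and contrast without the members, the other rRNA-like loci with a mean TPM of at least 1, genes overlapping a member, and the 5 genes most like Gm23935 and Gm26917 in each system. The genomic copies of Gm23935, the closest gene of CT010467.1 and the genes of the list of abundant noncoding RNAs were named after their values were seen. The labels call the cultures biological replicates. In no contrast with 3 or more pairs did every pair of same-numbered samples have a correlation of deviations above 0.1, so the numbers were not taken as pairs. At 6 months the correlations were 0.029, 0.117 and 0.061. For Aβ42 against reverse peptide with scramble LNA they were 0.226, 0.246, -0.209 and 0.563, so some pairs of that contrast were correlated. Depth in reads is not given in the files, so no counting interval was computed.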

Additional observations from a re-analysis of the deposited data

Results flagged for a closer look

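Mir6236 stood apart from the rest of its group in 2 HT-22 groups of 4 libraries. It took 0.0004298% of TPM in replicate 1 of Aβ42 with scramble LNA, where the other 3 were listed at 0, and 0.001297% in replicate 2 of reverse peptide with scramble LNA. The flag compares the gap beside an extreme value with the range of its group. A group with 3 libraries at 0 is flagged whenever the remaining one is above 0. No chance rate can be given for a gene this close to 0, the flags are no test, and many measures were examined.

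The APP minus WT difference of Gm26917 was -0.378 at 3 months and 1.42 at 6 months on log2(TPM + 1). Every APP mouse lay below every WT mouse at the first age and above every WT mouse at the second. The share of all genes that separate in this way is not given. The difference between the ages was not tested.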

How the results depend on the processing

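Counts of called genes (limma) moved as follows. For APP against WT at 3 months, 71 genes became 12 with the 4 transcripts or Gm23935 alone left out of TPM and 32 with no filter, and 2 to 205 with each library left out. At 6 months 10339 became 268 after median of ratios, and 7042 to 10416 with each library left out. At 12 months 114 became 178 without Gm23935, and 56 to 141 with each library left out. For Aβ42 against reverse peptide under anti-Hsf1 LNA, 4197 became 0 without the 4 transcripts, without Gm23935 or after median of ratios, and 0 to 6352 with each library left out. With scramble LNA 0 became 0 to 1 with each library left out, the 1 without reverse-peptide replicate 4. For anti-Hsf1 against scramble LNA under Aβ42, 8766 became 0 without the 4 transcripts or Gm23935 and 4 after median of ratios. With reverse peptide 0 became 2 with no filter.

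With each library left out and the 4 transcripts also left out, alternatives chosen after seeing the data, the counts were 2 to 144 at 3 months, 64 to 416 at 12 months, 0 to 1 for Aβ42 against reverse peptide under anti-Hsf1 LNA and 0 to 978 for anti-Hsf1 against scramble LNA under Aβ42. After median of ratios, also added later, the last contrast gave 0 to 16. The replicate block gave 484 genes at 3 months and 1 for Aβ42 against reverse peptide with scramble LNA, and kept the other 5 counts within 1.5 times. The cause of these changes was not tested. Among the members' 28 log2 differences, 8 moved by more than the spread within groups after median of ratios and 3 with a pseudocount of 0.1. Read depth and the placement of reads among identical copies limit the precision of every value.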
